A study of Mus musculus with 6 samples.

Results

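The genes described here guide lymphocytes and dendritic cells into and through lymphoid tissue. They are 4 chemokine ligands (Ccl19, Ccl21a, Cxcl13 and Cxcl12), 3 chemokine receptors (Ccr7, Cxcr5 and Cxcr4) and 2 vascular addressins (Glycam1 and Madcam1), chosen as 9 listed gene symbols. A gene was measured where the array has a probe set, a group of probes for 1 transcript, whose annotation names that gene alone. By this rule 8 of the 9 genes were measured, by 12 probe sets, out of 19938 genes in all. Ccl21a is named only together with 6 other genes, and its shared probe sets are described as such.

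Tumor-associated macrophages and normal germinal center macrophages were captured by laser from tissue sections, 1000 cells per mouse, and the RNA of each mouse was hybridized to 1 Affymetrix Mouse Gene 1.0 array. The 3 SS-TAM arrays hold starry-sky macrophages from subcutaneous tumors of the Burkitt's lymphoma line BL2, a human B cell line. These tumors were grown to 1.44 cm2 in female Balb/c SCID mice, a strain without functional T or B lymphocytes, and macrophages were chosen by CD68 staining. The 3 GCM arrays hold macrophages of germinal centers from female Balb/c mice that carry a CSF1R EGFP transgene and had received 2 doses of sheep red blood cells. All mice were 6 to 12 weeks old. Tissue and protocol labels of the GCM mice name the spleen, and their source label names lymph nodes. Macrophage type, tissue, SCID background, transgene and immunization differ together between the groups and cannot be told apart. The tumor cells are human and the probes are for mouse transcripts, and whether human RNA gave signal was not tested.

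CCL19 and CCL21 are the ligands of CCR7, which brings naive T cells and mature dendritic cells into T cell zones. CXCL13 is made by follicular stroma and draws CXCR5-bearing B cells and follicular helper T cells into follicles. CXCL12 and CXCR4 retain cells in bone marrow and arrange the dark zone of germinal centers. GLYCAM1 is a secreted mucin of high endothelial venules, and MADCAM1 is the ligand of integrin α4β7, found in gut venules and in the marginal sinus of the mouse spleen.

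The RefSeq promoter windows of Ccl21a, Ccl19, Cxcl13 and Glycam1 are shown to place the genes and to compare that of Ccl21a with those of the Ccl21 copies found in the table. Each window runs from 250 bases before to 50 bases after the annotated start, 5′ to 3′ on the gene's strand, in build GRCm38.p6. Capitals mark ATAAATA, an AT-rich heptamer searched on both strands and chosen after the sequences had been read. Windows were found for 7 of the 9 genes. Ccr7 and Cxcr5 had no entry.
Ccl21a, chr4:42773942-42774241, minus strand: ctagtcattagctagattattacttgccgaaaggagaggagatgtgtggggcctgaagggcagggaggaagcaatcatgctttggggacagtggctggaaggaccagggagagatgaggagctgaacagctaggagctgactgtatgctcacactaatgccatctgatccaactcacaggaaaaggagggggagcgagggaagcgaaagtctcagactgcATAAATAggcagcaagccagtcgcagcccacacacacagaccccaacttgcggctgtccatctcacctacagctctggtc
Ccl19, chr4:42756316-42756615, minus strand: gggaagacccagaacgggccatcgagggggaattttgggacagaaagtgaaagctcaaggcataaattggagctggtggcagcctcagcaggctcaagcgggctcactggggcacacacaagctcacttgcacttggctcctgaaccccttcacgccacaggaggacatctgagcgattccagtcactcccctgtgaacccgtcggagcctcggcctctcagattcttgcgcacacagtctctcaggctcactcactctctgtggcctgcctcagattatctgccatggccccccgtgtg
Cxcl13, chr5:95956689-95956988, plus strand: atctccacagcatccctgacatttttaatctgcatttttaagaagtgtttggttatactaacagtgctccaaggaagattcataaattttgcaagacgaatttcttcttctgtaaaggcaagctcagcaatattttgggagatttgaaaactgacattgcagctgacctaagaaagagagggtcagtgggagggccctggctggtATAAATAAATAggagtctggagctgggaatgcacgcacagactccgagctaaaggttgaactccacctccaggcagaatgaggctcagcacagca
Glycam1, chr15:103565032-103565331, minus strand: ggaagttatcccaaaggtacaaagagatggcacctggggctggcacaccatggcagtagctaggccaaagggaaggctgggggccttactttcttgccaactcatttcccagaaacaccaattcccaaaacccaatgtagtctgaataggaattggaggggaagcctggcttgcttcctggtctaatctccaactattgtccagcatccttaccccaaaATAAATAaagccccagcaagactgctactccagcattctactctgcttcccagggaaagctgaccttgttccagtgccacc

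The heptamer began 30 bases before the start of Ccl21a, 31 bases before that of Glycam1 and 45 and 41 bases before that of Cxcl13, where both matches overlap. It was found in 3 of the 7 windows and in 5.6% of 32851 promoter windows of the same length. Because the heptamer was chosen after the windows had been read, these shares are no test of enrichment. A match is a description of the letters and not of a bound site. The windows of the Ccl21 copies Ccl21d, Gm13304 and Gm10591 differed from that of Ccl21a at 2, 3 and 3 of 299 compared bases, and that of Ccl21b differed at 199 of 295. Windows were compared without gaps and with only small shifts, so the count for Ccl21b does not measure how far the sequences diverged. Counted from 1 at the 5′ end of the Ccl21a window, with the base of Ccl21a first, the differences were T142C and G272A in Ccl21d, Gm13304 and Gm10591, with T144C also in Gm13304 and Gm10591.

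Glycam1, Ccl19 and Ccr7 were lower in SS-TAMs than in GCMs, as was the signal shared by the Ccl21 copies. Cxcr4 was at similar levels on the deposited scale. Limma called 3 of the 8 measured genes lower and none higher at an adjusted p under 0.05, against 4.74% of all genes called lower and 5.16% called higher (9.9% in all). The 3 genes were each at least 2-fold lower, which held with a call for 2.36% of all genes. The call of Ccr7 was lost in 7 of 16 alternative analyses, whereas those of Glycam1 and Ccl19 held in all 16. On 6 of the 8 genes every SS-TAM array lay below every GCM array, which held for 11.5% of all genes, and arrays of the groups did not overlap in either direction for 30.1%. The median log2 fold change of the 8 genes was -1.32, against 0.04 over all genes. All folds here are SS-TAM relative to GCM, and p-values are Benjamini-Hochberg adjusted over 19938 genes from limma unless stated otherwise. The genes not called were Cxcl13, Cxcl12, Cxcr5, Cxcr4 and Madcam1, of which the first 3 had an unadjusted p under 0.05 and arrays that did not overlap. In bulk samples, fewer cells of a type and less RNA per cell cannot be told apart.

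**Figure D1:**
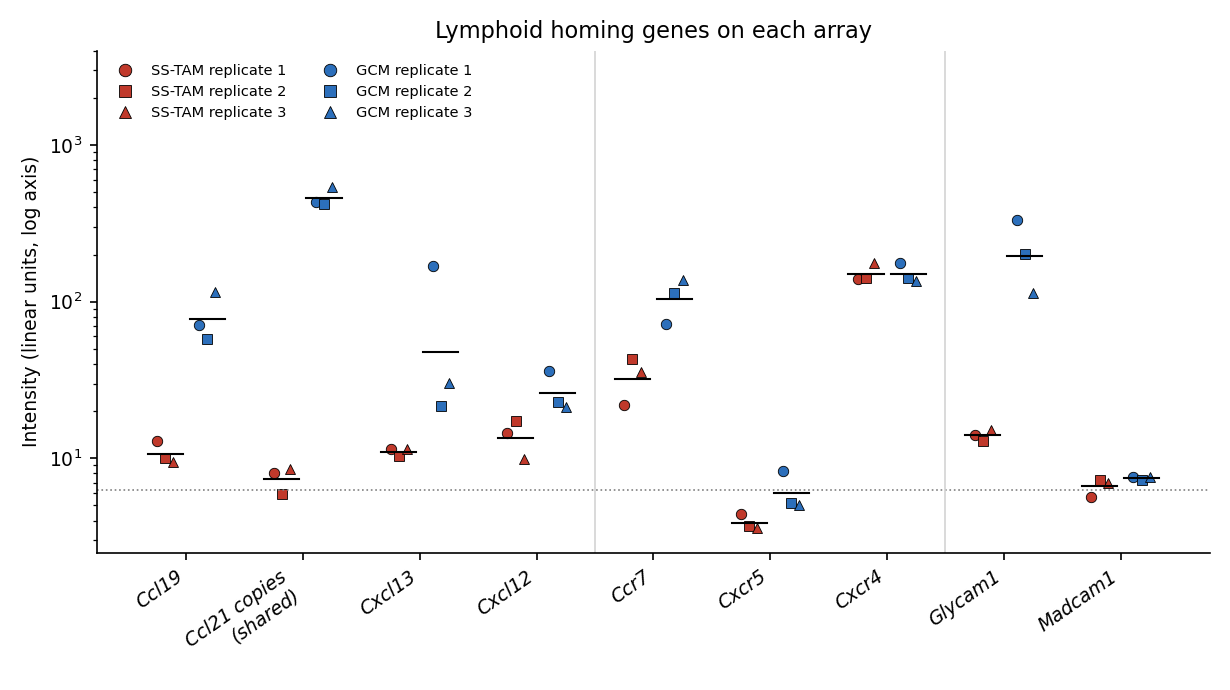
Intensity in linear units on a log axis for each homing gene. Each point is 1 array of 3 SS-TAM (red, left) or 3 GCM (blue, right) mice, bars are geometric means, the dotted line is the median intensity of the arrays, and grey lines part ligands, receptors and addressins. The shared Ccl21 signal is 5.9 to 8.5 for SS-TAM and 418.9 to 540.5 for GCM, and Cxcr4 overlaps between the groups.

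Among the ligands, the shared Ccl21 probe sets gave the largest decrease. Ccl21a is named by 4 probe sets, each with 7 genes (Ccl21a, Ccl21b, Ccl21c, Ccl21d, Gm1987, Gm10591 and Gm13304) and each with the same values, so which copy gave the signal cannot be told apart. Their intensity was 8, 5.9 and 8.5 on the SS-TAM arrays, against 432.5, 418.9 and 540.5 on the GCM arrays. The SS-TAM values were close to the median intensity of an array, 6.1 to 6.5, whereas the GCM arrays were uniformly bright. In a fit over all 28944 probe sets, in which 6.72% were called lower, the signal differed by -5.97 on the log2 scale with a standard error of 0.17 (limma, adjusted p = 0.00016), and no probe set had a lower one. The fitted difference was 62.5-fold, and with no detection calls used and SS-TAM levels near the median its size is uncertain.

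Ccl19, the other CCR7 ligand, was at 12.9, 10 and 9.5 on the SS-TAM arrays, against 70.8, 57.6 and 115.4 on the GCM arrays. The lowest GCM array was thus well above the highest SS-TAM array. SS-TAM arrays averaged 10.8 ± 1.84, against 81.3 ± 30.3 for GCM arrays (SD, n = 3 each), and the geometric mean was 7.27-fold lower on the SS-TAM arrays, or -2.86 on the log2 scale with a standard error of 0.27 (limma, adjusted p = 0.0038). Ccl19 has 5 probe sets, of which 2 hold identical values, and in the fit over all probe sets their log2 fold changes lay between -3.01 and -2.86. The RefSeq gene table also lists 3 Ccl19 pseudogenes, and whether their transcripts reach these probe sets was not tested. The call of Ccl19 held with each array left out in turn (adjusted p up to 0.026).

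Cxcl13, the follicular B cell attractant, was at 11.4, 10.3 and 11.4 on the SS-TAM arrays, against 167.7, 21.6 and 30.2 on the GCM arrays. SS-TAM arrays were alike and lower than every GCM array, while GCM replicate 1 was far above the other GCM arrays. SS-TAM arrays averaged 11.0 ± 0.64, against 73.2 ± 82.0 for GCM arrays (SD, n = 3 each), and the log2 fold change of -2.12 did not pass (95% confidence interval -3.97 to -0.26, adjusted p = 0.15 from limma). Without GCM replicate 1 the log2 fold change was -1.21 and the gene was called (adjusted p = 0.029). Over the 6 fits that each left out 1 array, adjusted p ran from 0.029 to 0.28.

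Cxcl12, the ligand of CXCR4 and of the atypical receptor ACKR3, was at 14.6, 17.2 and 9.9 on the SS-TAM arrays, against 36.2, 22.8 and 21.1 on the GCM arrays. The arrays did not overlap, but the gap between the nearest arrays was small. The log2 fold change was -0.94 (95% confidence interval -1.63 to -0.24) and did not pass the threshold (adjusted p = 0.10 from limma).

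Among the receptors, Ccr7 was lower in SS-TAMs, Cxcr5 was dim in both groups and Cxcr4 was at like levels in both on the deposited scale. Ccr7 was at 21.8, 43.1 and 35.6 on the SS-TAM arrays, against 72.4, 113.8 and 137.9 on the GCM arrays. No array overlapped, and the SS-TAM values stayed several times above the median intensity. SS-TAM arrays averaged 33.5 ± 10.8, against 108 ± 33.1 for GCM arrays (SD, n = 3 each), and the geometric mean was 3.24-fold lower on the SS-TAM arrays, or -1.70 on the log2 scale with a standard error of 0.33 (limma, adjusted p = 0.033). The call was lost without any 1 array other than GCM replicate 1 (adjusted p up to 0.13), after quantile normalization (adjusted p = 0.090) and with array weights (adjusted p = 0.079).

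Cxcr5, the receptor for CXCL13, was at 4.4, 3.7 and 3.6 on the SS-TAM arrays, against 8.3, 5.2 and 5 on the GCM arrays. Only GCM replicate 1 was above the median intensity of its array. The log2 fold change was -0.63 (95% confidence interval -1.15 to -0.11, adjusted p = 0.14 from limma). At levels this close to the median of the arrays the size of a difference cannot be read.

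Cxcr4, the receptor for CXCL12, was at 138.8, 140.9 and 176 on the SS-TAM arrays, against 176.1, 140.9 and 135 on the GCM arrays. The ranges of both groups were nearly the same. The log2 fold change was 0.01 (95% confidence interval -0.33 to 0.36, adjusted p = 0.96 from limma), so a difference of 2-fold lies outside the interval of this fit. This value rests on the scaling between arrays. Quantile normalization gave 0.85 with a call (adjusted p = 0.0024), and median centring gave -0.05 with none (adjusted p = 0.85).

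**Figure D2:**
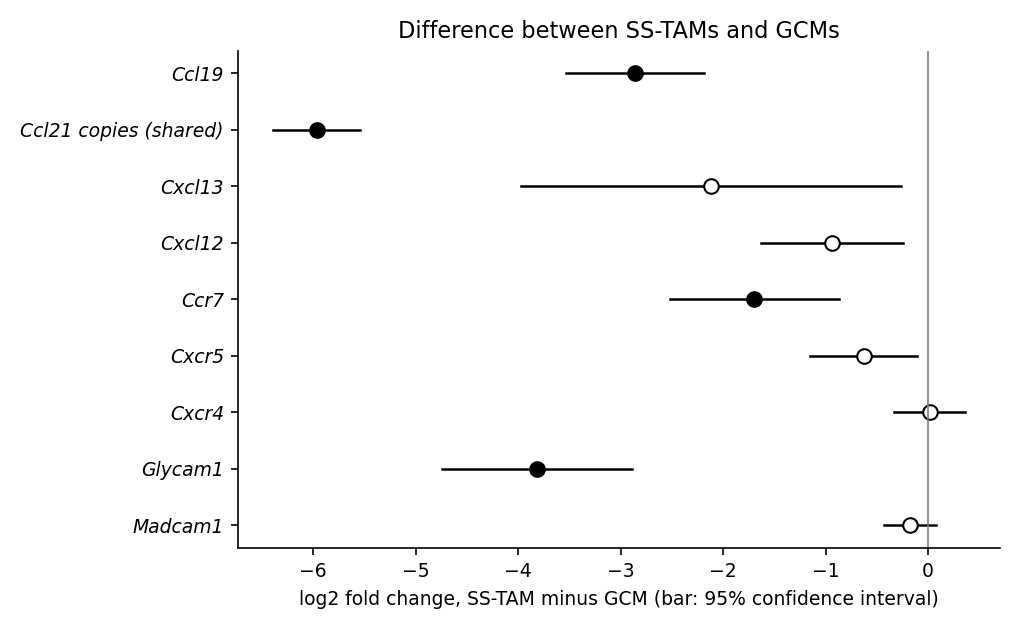
Log2 fold change of each homing gene, SS-TAM minus GCM, with its 95% confidence interval from limma. Filled circles passed an adjusted p of 0.05 and open circles did not, and the shared Ccl21 probe set comes from the fit over all probe sets. Intervals of Cxcr4 and Madcam1 include 0.

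Of the addressins, Glycam1 was lower in SS-TAMs and Madcam1 was near the median intensity throughout. Glycam1 was at 14.1, 12.9 and 15.1 on the SS-TAM arrays, against 334, 201.3 and 113.4 on the GCM arrays. SS-TAM arrays varied little, and the GCM arrays spread widely while staying apart from them. SS-TAM arrays averaged 14.0 ± 1.10, against 216 ± 111 for GCM arrays (SD, n = 3 each), and the geometric mean was 14.1-fold lower on the SS-TAM arrays, or -3.81 on the log2 scale with a standard error of 0.38 (limma, adjusted p = 0.0042). Only 8 of 19938 genes had a lower log2 fold change, and the call held with each array left out in turn (adjusted p up to 0.030).

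The sum of other high endothelial venule markers was similar in both groups, but several of them lay near the median intensity. Such a sum cannot show whether the groups held like amounts of venule, which was not tested. Their summed intensity, over 12 measured genes, was 92.3 to 94.8 on the SS-TAM arrays, against 91.5 to 100.6 on the GCM arrays. Chst4, which encodes a sulfotransferase of high endothelial venules, was at 4.6, 5 and 5 on the SS-TAM arrays, against 5.1, 5 and 5.1 on the GCM arrays. Fut7, a fucosyltransferase that makes selectin ligands, was at 4.8, 6.1 and 5.9 on the SS-TAM arrays, against 5.1 on each GCM array. Both were below the median intensity of every array. Of the whole list of 13 measured markers, Glycam1, Chst2 and Ubd were called lower and B3gnt3 higher, against 4.74% and 5.16% of all genes. For each of Chst2, Ubd and B3gnt3 there were 3 or more arrays whose omission ended the call (limma, adjusted p up to 0.15). Glycam1 is also made by the lactating mammary gland, and none of 10 measured markers of mammary and skin epithelium was called. Csn2, a milk casein, was at 8.1, 8.3 and 7.6 on the SS-TAM arrays, against 7, 7.3 and 7.3 on the GCM arrays. These 10 markers were dim together, with sums of 64.1 to 75.9 on the SS-TAM arrays and 55.6 to 59.8 on the GCM arrays. Which cells gave the Glycam1 signal was not tested.

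Madcam1 was at 5.7, 7.3 and 7 on the SS-TAM arrays, against 7.6, 7.3 and 7.6 on the GCM arrays, with a log2 fold change of -0.18 (95% confidence interval -0.43 to 0.08, adjusted p = 0.33 from limma). The arrays overlapped, and no probe value stood out from the dim range. The list that includes Madcam1 holds 10 measured markers of splenic stroma, marginal sinus and splenic macrophages. None of them was called lower, and Spic and Tlx1 were called higher, against 4.74% and 5.16% of all genes. Spic, a factor of red pulp macrophages, was at 7.7, 7.7 and 8 on the SS-TAM arrays, against 4.8, 4.5 and 4.9 on the GCM arrays. Tlx1, a factor of spleen mesenchyme, was at 6.4, 6.2 and 6.2 on the SS-TAM arrays, against 4.3, 3.6 and 4.5 on the GCM arrays. Both genes lay below the median intensity on the GCM arrays, and Tlx1 lay near it on the SS-TAM arrays (6.3 to 6.5). Tlx1 was not called without SS-TAM replicate 3 or GCM replicate 1 (adjusted p up to 0.056).

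Within the GCM group the homing genes did not vary alike. GCM replicate 1 was the highest GCM array for Cxcl13, Cxcl12, Cxcr5, Cxcr4 and Glycam1. GCM replicate 3 was the highest for the shared Ccl21 probe sets, Ccl19 and Ccr7, that is for CCR7 and both of its ligands. Among cell markers, all 14 measured for B cells were highest on GCM replicate 1. Their summed intensity was 542.3 on that array, against 205.8 and 208 on GCM replicates 2 and 3. Markers of germinal center B cells summed to 239 on GCM replicate 1, against 95.5 and 102.5 on the other GCM arrays. Markers of dendritic cells, in which CCR7 rises on maturation, summed to 152.8 on GCM replicate 1, against 217.5 and 242.5 on replicates 2 and 3, and none of the 12 was highest on replicate 1. T cell markers rose in the same order, with sums of 1358.9, 1610.9 and 1835.1 on GCM replicates 1, 2 and 3. Whether the homing genes follow these cells was not tested.

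**Figure D3:**
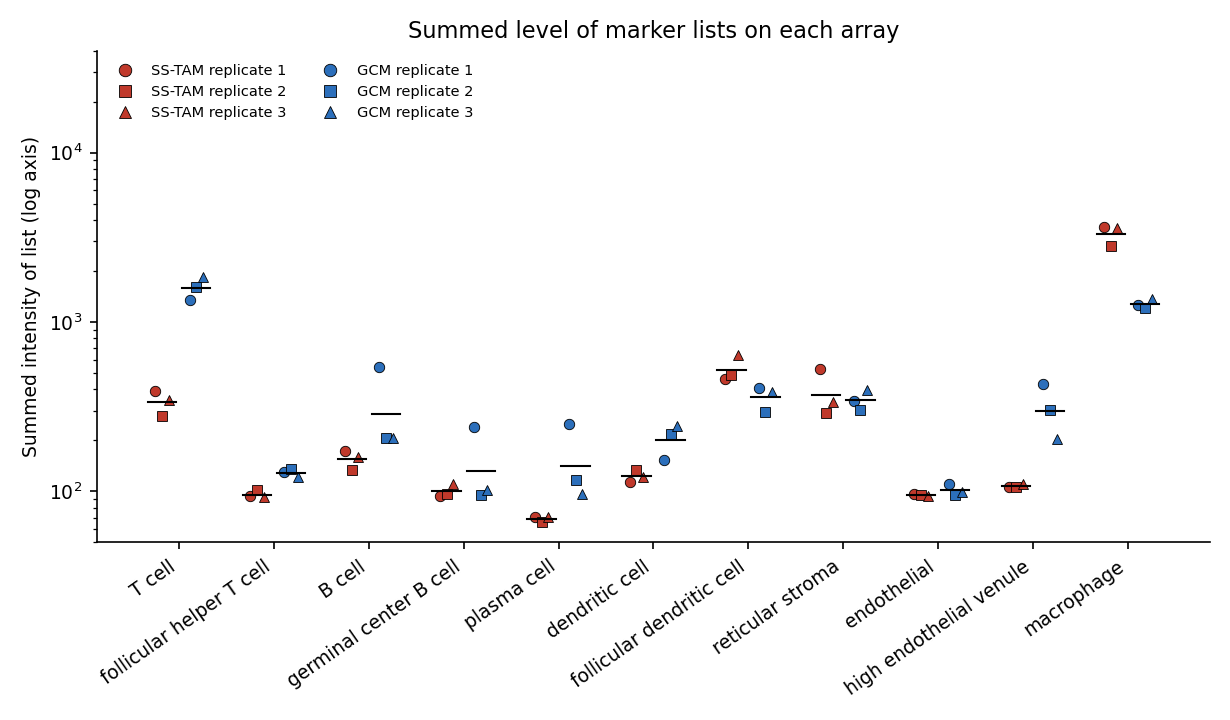
Summed intensity, on a log axis, of the measured genes of 11 marker lists on each array, with 3 SS-TAM arrays (red, left) and 3 GCM arrays (blue, right) and bars at geometric means. T cell markers sum to 278.5 to 390.4 for SS-TAM and 1358.9 to 1835.1 for GCM, and B cell markers reach 542.3 on GCM replicate 1.

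Several markers of lymphocytes, dendritic cells and macrophages also differed between the groups, where 4.74% of all genes were called lower and 5.16% higher. For T cells, 9 of 17 measured markers fell and none rose on the SS-TAM arrays, with a summed intensity of 278.5 to 390.4 on the SS-TAM arrays and 1358.9 to 1835.1 on the GCM arrays. Cd3g, which encodes a CD3 chain, was at 6.2 to 6.5 on the SS-TAM arrays, against 276.2 to 411.1 on the GCM arrays. Of 14 B cell markers Ms4a1 and Cd79a were lower and none was higher, and the sums were 133 to 174 on the SS-TAM arrays and 205.8 to 542.3 on the GCM arrays. Of 12 dendritic cell markers Flt3, Dpp4 and Clec9a were lower and none was higher, with sums of 114 to 133.7 on the SS-TAM arrays and 152.8 to 242.5 on the GCM arrays. The B and dendritic cell counts were unstable, with 0 to 4 and 0 to 2 lower when 1 array was left out. Macrophage markers went the other way, with 13 of 19 called higher and none lower. Their sums were 2807.6 to 3639.9 on the SS-TAM arrays and 1207.6 to 1365.2 on the GCM arrays. Msr1, Mertk, Trem2 and Ctss of this list are among the genes the paper reports as higher in SS-TAMs. SS-TAMs were also chosen by staining for CD68, the product of a listed gene. Whether the sums follow macrophage content was not tested. Scaling the arrays to these macrophage markers lowered the log2 fold change of every gene by the same amount, from a median of 0.04 over all genes to -1.57, so smaller increases than that shift turn negative under it by construction, and differences relative to the median of all genes stay as they are. The part of these cells in the differences of the homing genes was not tested.

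Called markers listed for stromal sources of homing chemokines showed no common direction. Of 10 measured follicular dendritic cell markers, Clu and Mfge8 were called lower and Vcam1 higher in SS-TAMs, against 4.74% and 5.16% of all genes. Which cells gave the Vcam1 signal was not tested. Clu, a secreted chaperone, was at 7.5, 7.6 and 8.4 on the SS-TAM arrays, against 148, 73.3 and 112 on the GCM arrays (adjusted p = 0.0014 from limma). Cr2, the complement receptor of follicular dendritic and B cells, was at 5, 4.7 and 5.6 on the SS-TAM arrays, against 34.4, 11 and 11.6 on the GCM arrays, and did not pass (adjusted p = 0.074). Of 14 markers of fibroblastic reticular and perivascular stroma, Il33 and Grem1 were called lower and Col1a2 and Pdgfrb higher, and none of these 4 calls held with every array left out (adjusted p up to 0.13). Endothelial markers summed to 94.4 to 96.2 on the SS-TAM arrays and 95.3 to 111.2 on the GCM arrays.

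Lymphotoxin, made by lymphocytes, acts on stroma to induce CXCL13, CCL19 and CCL21 through the noncanonical NF-kB pathway. In this list 2 of 18 measured genes were called lower in SS-TAMs and none higher, against 4.74% and 5.16% of all genes. The median log2 fold change of the list was 0.10. Ltb, which encodes lymphotoxin β, was at 15.8, 15.2 and 12.4 on the SS-TAM arrays, against 133.4, 133.4 and 227.2 on the GCM arrays. On the log2 scale the difference was -3.47 with a standard error of 0.23 (limma, adjusted p = 0.0015). Birc3, an inhibitor of apoptosis that is a target of NF-kB, was at 7.7 to 7.8 in SS-TAMs and 13.7 to 16.2 in GCMs (adjusted p = 0.0021). The receptor gene Ltbr was at 7.9, 7.1 and 7.9 in SS-TAMs, against 6.7, 6.7 and 6.6 in GCMs (adjusted p = 0.12). The calls of Ltb and Birc3 held with each array left out.

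Lymphocyte positioning also uses oxysterols and sphingosine 1-phosphate. Of 15 genes of that list 2 were called lower and 2 higher, against 4.74% and 5.16% of all genes. S1pr1, the receptor by which lymphocytes leave lymphoid tissue, was at 33.8, 19.1 and 18.7 on the SS-TAM arrays, against 106.2, 154.4 and 149.1 on the GCM arrays. On the log2 scale it differed by -2.55 with a standard error of 0.27 (limma, adjusted p = 0.0055). Cd69, an early activation antigen that holds S1PR1 inside the cell, was lower, with a log2 fold change of -0.99 (adjusted p = 0.031). Sgpl1, the lyase that degrades sphingosine 1-phosphate, and Plpp3, a lipid phosphatase, were higher, with log2 fold changes of 1.35 and 0.73 (adjusted p = 0.036 and 0.016). Of these 4 genes only S1pr1 kept its call with each array left out.

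The adhesion genes that act with chemokines in homing were mixed. Of 22 measured genes 3 were called lower and 2 higher, against 4.74% and 5.16% of all genes. Itga4, the α4 chain that pairs with β7 to bind MADCAM1 and with β1 to bind VCAM1, was at 19.2, 17.7 and 25.2 on the SS-TAM arrays, against 56.1, 54.2 and 67.3 on the GCM arrays (adjusted p = 0.0046 from limma). Itgb7, the β7 chain, was lower by a log2 fold change of -0.40 (adjusted p = 0.033), a call that ended without SS-TAM replicate 3 or any GCM array. Vcam1, in contrast, was at 382.7, 408.1 and 545.3 on the SS-TAM arrays, against 116.1, 125.4 and 167.3 on the GCM arrays, or 3.27-fold higher (adjusted p = 0.0061). Itga4 and Vcam1 kept their calls with each array left out.

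Chemokine-modifying genes included 4 of 16 that were called higher in SS-TAMs (Plau, Mmp2, Sdc4 and Ackr3) and 1 that was called lower (Dpp4). Over all genes 5.16% were called higher and 4.74% lower. Mmp2, a protease that can cleave CXCL12, was at 34.8, 23.3 and 26.7 on the SS-TAM arrays, against 10.5, 8.8 and 8.5 on the GCM arrays (adjusted p = 0.0049 from limma). Dpp4, a peptidase that trims the amino end of CXCL12, was at 12.5, 7.4 and 7.1 on the SS-TAM arrays, against 17.8, 25.3 and 28.7 on the GCM arrays (adjusted p = 0.031). Ackr3, which scavenges CXCL12, was dim, at 5.7, 7.1 and 5.6 in SS-TAMs and 3.9, 4.5 and 4.4 in GCMs (adjusted p = 0.045). Plau and Mmp2 kept their calls with each array left out, Dpp4 stayed called only in the fit that omitted SS-TAM replicate 1, and Ackr3 lost its call without any 1 array.

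Of 31 measured genes of chemokine receptor signaling 4 were called lower and 1 higher, against 4.74% and 5.16% of all genes. Coro1a, an actin regulator needed for T cell migration, was at 24.5, 18.1 and 19.1 on the SS-TAM arrays, against 97.3, 92.9 and 124.7 on the GCM arrays (adjusted p = 0.0015 from limma). Rassf5, which links chemokine signals to integrins, Rgs2, which dampens G protein signaling, and Rap1a were also lower, with log2 fold changes of -0.48, -1.08 and -0.96. The G protein subunit gene Gng2 was higher by 0.51, and Rap1a was at -0.09 and not called after quantile normalization. Among these 5 genes only Coro1a kept its call with each array left out. Of 19 other homeostatic chemokines and receptors, Cxcr6 was lower (log2 fold change -0.77, adjusted p = 0.035) and none was higher, and Cxcr6 kept its call only without SS-TAM replicate 2. Of 13 regulators of the CXCL12 to CXCR4 axis, Hif1a was lower and Kitl higher (adjusted p = 0.030 and 0.042). For both genes the omission of 5 of the 6 arrays, each by itself, ended the call. With so few genes per list, counts near the shares of all genes are no result about the list.

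**Figure D4:**
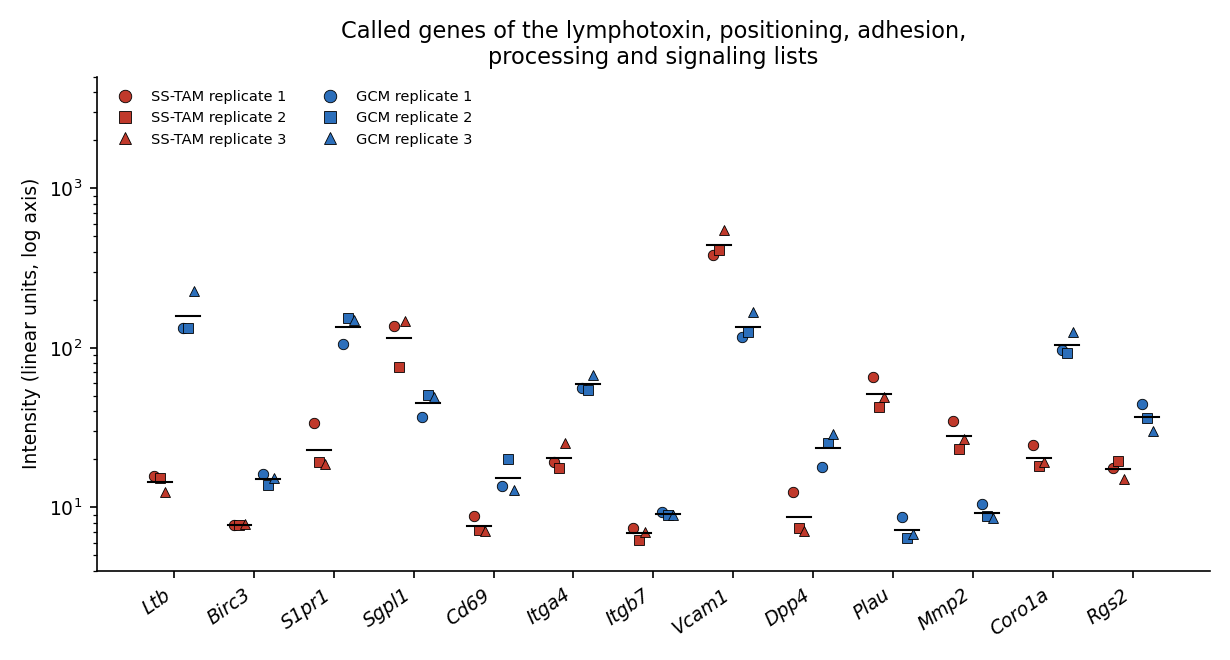
Intensity in linear units on a log axis for 13 called genes of the lymphotoxin, positioning, adhesion, processing and signaling lists. Each point is 1 array (SS-TAM red and left, GCM blue and right), with bars at geometric means. Ltb is 12.4 to 15.8 for SS-TAM and 133.4 to 227.2 for GCM, and Vcam1 runs the other way.

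For each called homing gene the most similar profiles were sought among all genes, as the smallest Euclidean distance between gene-centred log2 values over the 6 arrays. Nearest to Glycam1 were Cd24a, Ccl5 and Clu, at distances of 0.65, 1.08 and 1.08. Nearest to Ccl19 were Ctse, Rpsa and Lsp1, at 0.56, 0.61 and 0.63. Nearest to Ccr7 were Hikeshi, Peli1 and Rps7, at 0.42, 0.48 and 0.57. The difference between the groups makes up most of each profile, so these distances describe it and are no independent relation.

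**Figure D5:**
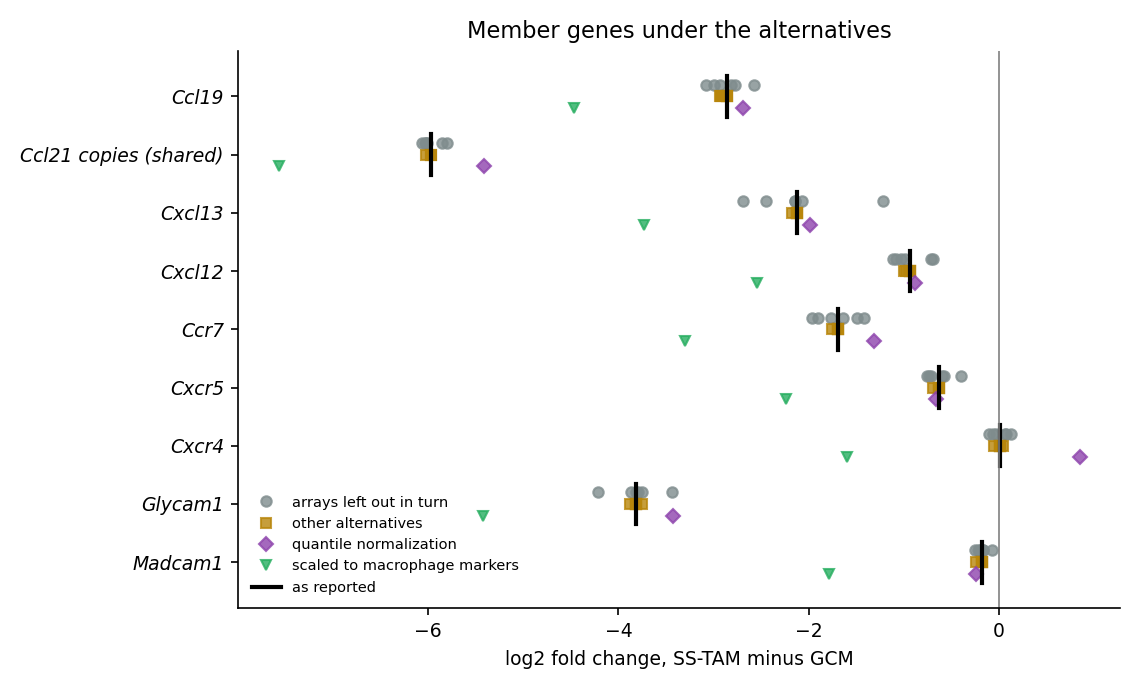
Log2 fold change of each homing gene, SS-TAM minus GCM, as reported (black bar) and under the alternatives (points). Scaling arrays to macrophage markers moves every gene down together with the median of all genes, to -1.57, and Cxcr4 reaches 0.85 after quantile normalization.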

How the data were processed

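Laser-captured macrophages of 3 SS-TAM and 3 GCM mice were profiled on 1 array each. The deposited values are intensity on a linear scale with 1 decimal, 2.4 to 2543.6, which the authors summarized and normalized (RMA and limma in the submitters' processing notes, which give no version). Array medians were alike, at 6.1 to 6.5, but the bright ends differed between the groups. The 99th percentile was 241.5 to 283.7 on the SS-TAM arrays and 613.8 to 663.8 on the GCM arrays. Folds of bright genes thus depend on the scaling, and quantile normalization is among the alternatives. No detection calls were used, and the number of arrays limits the precision. Log2 of the intensities was fitted by group in R 4.3.3 with limma 3.58.1 (lmFit, eBayes, no covariate, two-sided), with Benjamini-Hochberg adjustment and a threshold of 0.05.

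Of 28944 probe sets, 21789 name 1 gene, 1621 several and 5534 are unnamed here. Symbols were updated by gene ID (21698 matched), and the brightest probe set stood for a gene with several. Named genes are the listed members, the 3 nearest profiles of each called member, up to 4 called genes of each pathway list by adjusted p and up to 4 of each marker list. Itgb7, Ackr3, Rap1a, Ltbr, Chst4 and Fut7 lie outside that rule and were chosen after their values were seen. The members and lists were chosen with earlier results of these data known. The procedure was also run on simulated data with 200 changed genes, and the outcome of that run is not given here. Alternatives covered scaling, dim genes, probe set choice, variance model, array weights, a replicate block, the fold criterion and each array left out.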

Additional observations from a re-analysis of the deposited data

How the results depend on the processing

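Of 139 alternative results of the homing genes and the shared Ccl21 probe set, 121 kept direction and side of the threshold. The fold criterion reuses the reported fit, and genes that stayed uncalled count among those kept. Of the called genes, Ccr7 lost its call in 7 of 16 alternatives, and Ccl19 and Glycam1 kept theirs in all 16. The log2 fold change of Cxcr4 turned to -0.048 after median centring and to -1.59 with arrays scaled to macrophage markers, and ran from -0.10 to 0.13 with 1 array left out. That scaling moved the median of all genes to -1.57 and called 8 homing genes lower. Relative to that median, Cxcr4 was at -0.03. Quantile normalization called 1 homing gene higher, Cxcr4. With 1 array left out, 2 to 4 homing genes were called lower and none higher. Over all genes, counts lower and higher were 19698 and 92 with the macrophage scaling, 1944 and 1590 with all probe sets tested, 470 and 279 at 2-fold or more, and 399 to 796 and 271 to 1159 with 1 array left out, fewest without GCM replicate 2. Leaving out GCM replicate 1, 2 or 3 gave 499 and 348, 399 and 271, and 433 and 303. Median centring gave 1169 and 746, against 946 and 1028 as reported.

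Deviations of same-numbered arrays from their group means had correlations of 0.09, 0.09 and 0.02 across genes. Differently numbered arrays gave lower values, from -0.08 to 0.01. With 3 arrays per group these values cannot decide whether same-numbered arrays are paired. With a replicate block 708 genes were lower and 611 higher, and 3 homing genes stayed lower. The cause of these shifts was not tested, apart from the common shift under the macrophage scaling and the larger number of features when all probe sets were tested. Where levels lie near the median intensity, the arrays limit what fold can be read.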
